A study of Arabidopsis thaliana with 8 samples.

Results

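Eukaryotic initiation factor 3 (eIF3) subunit genes were followed in Arabidopsis seedlings that carry a mutation in 1 of them, TIF3H1 (AT1G10840), which encodes subunit h. The genes were chosen by locus from a list of 10 eIF3 loci, and their signals were read from probe sets that could be tied to a single locus. Of the 10 loci, 5 could be read and all 5 passed the signal filter. These were TIF3H1, EIF3G1 (AT3G11400, subunit g), AT4G20980 (subunit d), AT1G66070 (subunit j) and AT3G02200 (subunit m), out of 22746 probe sets on the array without controls. The other 5 listed loci were not analysed here. The platform annotation named AT4G20980, AT1G66070 and AT3G02200, giving the locus only, so their subunit letters are background knowledge. It did not name the probe sets of TIF3H1 and EIF3G1. Those names came from the study's own lists of mRNAs that changed, so these 2 genes entered partly because they had changed, and their values are not independent evidence of a change.

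The eIF3 complex binds the small ribosomal subunit and helps to assemble the initiator tRNA, the initiation factors and the mRNA into a scanning pre-initiation complex. Subunits a, b and c form its core in all eukaryotes, with g and i attached, while d, e, f, h, k, l and m are absent from budding yeast and form part of the larger complex of plants and animals. Subunits f and h carry an MPN domain and several others, m among them, carry a PCI domain, folds also found in the COP9 signalosome and the lid of the proteasome. Subunit j is loosely attached and in yeast and mammals acts at the decoding centre of the small subunit. The comparisons ask whether the mutation in the h subunit gene goes along with a different mRNA level or ribosome loading of h itself and of its partners.

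Aerial parts of 10-day-old seedlings were compared, of the eif3h mutant and of the wild type (WT), both grown in constant light on sucrose medium. The mutant carries the eif3h-1 allele, a T-DNA insertion in TIF3H1 that leaves a protein lacking its carboxyl end. The paper reports a low level of this truncated protein and proposes that reduced expression and truncation may both underlie the defects. A single allele was studied, and the seedlings of a sample were pooled. RNA was separated on sucrose gradients into a polysomal fraction (PL), with ribosomes engaged, and a non-polysomal fraction (NP), and each was hybridized to an ATH1 array. There were 2 gradients per genotype, which gives 4 groups (eif3h PL, WT PL, eif3h NP, WT NP) of 2 arrays and 8 arrays in all. The methods describe the replicates as separate RNA preparations.

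Each array had been scaled to the same trimmed mean signal (500.04 to 500.06), so a signal is a share of the RNA in a fraction, not an amount, and a shift of all mRNAs between fractions is not visible. Array medians lay between 185.75 and 277. A whole-shoot sample also cannot tell fewer cells of a type from less RNA per cell. The arrays of a replicate shared 1 scan day and 1 scanner, which both genotypes and both fractions were part of, and the replicate was a term of the fit. Of the green shoot markers, 3 of 8 could be named (RCA, LHCB4.1 and LHCB4.2, encoding Rubisco activase and antenna proteins). Their summed signal was 55143 and 76721 in eif3h PL against 84198 and 86412 in WT PL, and 36950 and 36673 in eif3h NP against 92948 and 82662 in WT NP. The labelled green tissue was thus present in both genotypes. In PL, LHCB4.2 carried the difference (7084 and 7029 in eif3h against 24003.4 and 19827.7 in WT; -1.63, adjusted p = 0.00161), with LHCB4.1 at -0.16 and RCA at -0.09 not called, while in NP the differences were -2.74, -1.12 and -0.80 for LHCB4.2, LHCB4.1 and RCA. The part of these marker differences in the results for eIF3 and other initiation factors was not tested. Of the root markers 1 of 5 was named (PYK10, a root beta-glucosidase), with signals of 1812.6 to 8712.4 in eif3h and 1835.6 to 9267.5 in WT, and of 11 seed reserve genes 0 were named.

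TIF3H1, the mutated gene, had far lower polysomal signal in eif3h than in the wild type, while its non-polysomal signal lay in the range of the wild type. In PL its signals were 213.4 and 192.4 in eif3h against 1277.3 and 1148.7 in WT. In NP they were 1897.3 and 1949.6 in eif3h against 2160.1 and 1732.5 in WT. The polysomal values of the 2 genotypes did not overlap, and the non-polysomal values of eif3h lay between those of WT. In eif3h polysomes the signal was only 1.15 and 1.02 times the median of its array, against 6.57 and 5.44 times in WT polysomes. No source used here places this probe set before or after the T-DNA, so its signal is no check of the genotype labels.

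**Figure D1:**
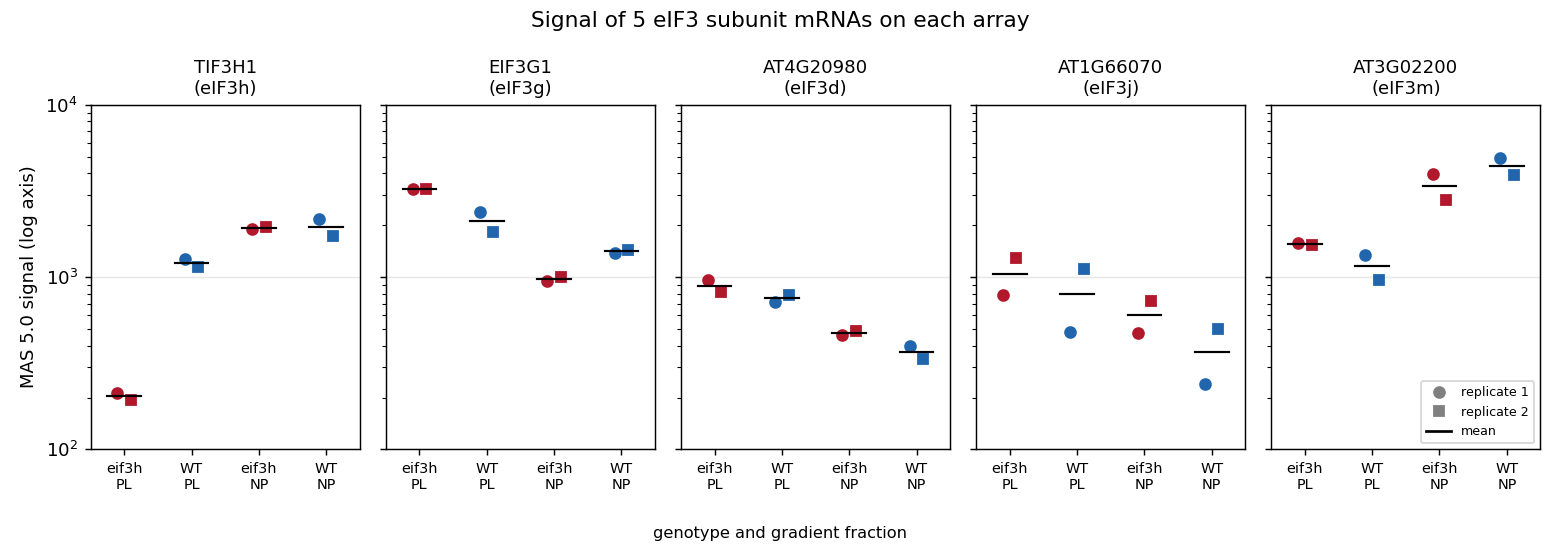
Signal of each eIF3 gene on all 8 arrays, in deposited array units on a log axis, with eif3h left of WT within each fraction and 1 point per array (bars mark the mean of 2 gradients). TIF3H1 sits at 192.4 and 213.4 in eif3h polysomes, below WT at 1148.7 and 1277.3, while its non-polysomal points overlap. Heights of different genes are not comparable, since each has its own probe set.

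Expressed as a difference of log2 signals, TIF3H1 was lower in eif3h PL by -2.58 (SE 0.19, 5.98-fold), with -2.58 in each replicate. The difference in NP was -0.01 (SE 0.19, 95% interval -0.44 to 0.43), with -0.19 and 0.17 in the replicates. Averaged over both fractions, which stands in here for the mRNA level because total RNA was not analysed here, it was -1.29 (SE 0.14). This mean came from the PL difference, to which NP added almost nothing. Since its probe set was named through lists of mRNAs that were lower in eif3h, 1 of them chosen on these arrays, the values of TIF3H1 are a description and no test is given.

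The translation state, the log2 ratio of PL to NP signal within a gradient, was -3.15 and -3.34 for TIF3H1 in eif3h and -0.76 and -0.59 in WT. Both genotypes therefore held more of this mRNA outside polysomes than on them, on the scale of these arrays, and the eif3h values lay far below those of WT. The change of translation state, eif3h minus WT, was -2.57 (SE 0.27, 95% interval -3.19 to -1.96), a 5.94-fold lower ratio, with -2.39 and -2.75 in the replicates. It was the tenth lowest of the 11373 tested probe sets, and over all 11 alternatives run it ranged from -2.67 to -2.31. Because the probe set was named through a list chosen on these arrays, the interval, rank and range only describe the value. They are no evidence of a change.

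**Figure D2:**
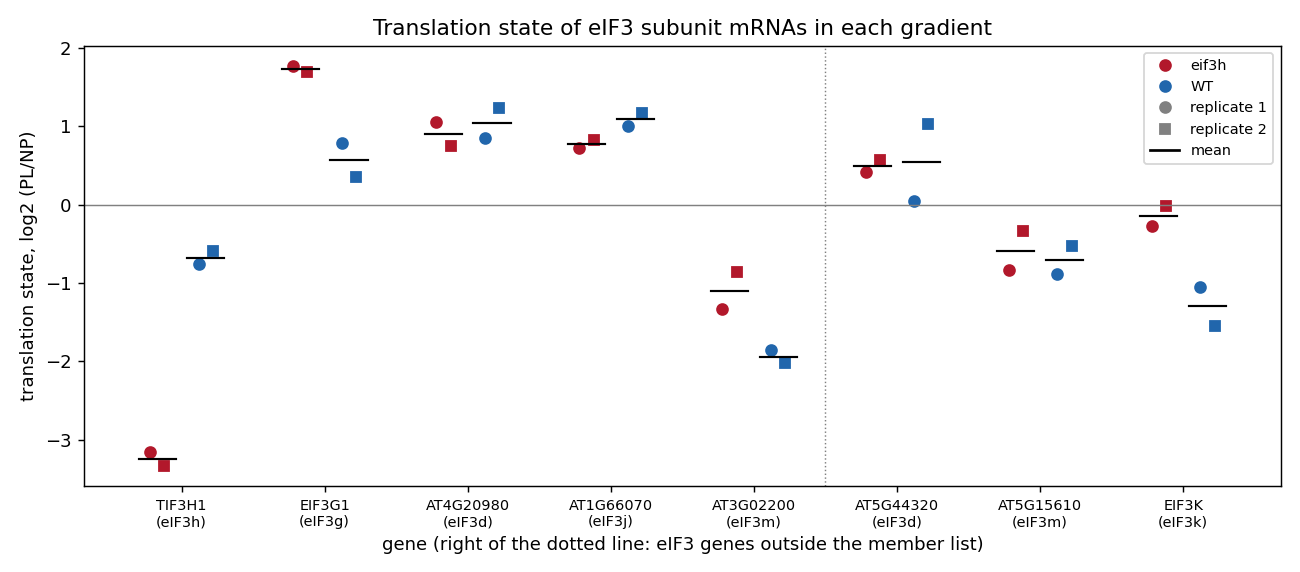
Translation state (log2 PL/NP) of each eIF3 gene, 1 point per gradient with bars at the means, eif3h left of WT and the 3 further eIF3 genes right of the dotted line. The 2 eif3h points of TIF3H1, at -3.15 and -3.34, lie below its WT points at -0.76 and -0.59, and EIF3G1 and AT3G02200 lie higher in eif3h than in WT.

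EIF3G1 encodes subunit g, an RNA-binding subunit of the core assembly, and its signal moved the other way. In PL the signals were 3234 and 3256.2 in eif3h against 2394.1 and 1835.6 in WT. In NP they were 948 and 1005.3 in eif3h against 1383.1 and 1439 in WT. The genotypes did not overlap in either fraction, with eif3h higher on polysomes and lower off them. The translation state was 1.77 and 1.70 in eif3h and 0.79 and 0.35 in WT, and the change was 1.16 (0.98 and 1.34 in the replicates). Since the probe set was named through a list of mRNAs chosen for more than 2-fold higher loading in eif3h on these arrays, this is a description and no test is given. Over both fractions the mean difference was 0.05. Signals are shares of each fraction, so whether the mRNA moved between fractions or kept its level was not tested.

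AT3G02200, 1 of a pair of genes for the PCI subunit m, had the lowest translation state of the 5 genes in WT. Its PL signals were 1573.8 and 1540.6 in eif3h against 1345.6 and 957.9 in WT. Its NP signals were 3955.1 and 2807.8 in eif3h against 4883.4 and 3896 in WT. The polysomal values of eif3h were above those of WT, while the non-polysomal values overlapped. The translation state was -1.33 and -0.87 in eif3h (fitted mean -1.10, adjusted p = 0.00295) and -1.86 and -2.02 in WT (-1.94, adjusted p = 5.19e-04), the WT value lying at the 1.38th percentile of all tested probe sets. The change was 0.84 (SE 0.28, 95% interval 0.21 to 1.48, adjusted p = 0.246), positive in both replicates (0.53 and 1.16), and did not pass the test. With eif3h replicate 1 left out it was 1.08, and with eif3h replicate 2 left out 0.61. Its adjusted p was 0.660 without the replicate block and 0.106 with the gradient as a block. Neither the PL difference of 0.46 (adjusted p = 0.161) nor the NP difference of -0.39 (adjusted p = 0.200) was called, and the mean over both was 0.03 (95% interval -0.28 to 0.35).

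AT1G66070, for the loosely bound subunit j, was the only one of the 3 subunit genes open to a test (d, j and m) called higher in eif3h in any comparison of genotypes. In PL its signals were 785.5 and 1296.2 in eif3h against 481.1 and 1120.4 in WT. In NP they were 473.9 and 730.5 in eif3h against 239.7 and 497.6 in WT. Replicate 2 was higher than replicate 1 in all 4 groups, so the genotypes overlapped, but eif3h exceeded WT within each replicate in both fractions. The NP difference was 0.77 (SE 0.22, 1.70-fold, adjusted p = 0.0437; 0.98 and 0.55 in the replicates), in a comparison where 8.45% of probe sets were called higher and 8.65% lower. The mean over both fractions was 0.61 (SE 0.16, 1.53-fold, adjusted p = 0.0183), where 13.6% were called higher and 14.5% lower. The fit counts the 2 fractions of a gradient as separate arrays, so the SE and p of this mean can be too small. The PL difference of 0.46 was not called (adjusted p = 0.203).

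Both calls for AT1G66070 varied with the setting, and the size of both differences with single gradients. The NP call was lost with quantile normalization (0.67, adjusted p = 0.0647) and with median centring (0.67, adjusted p = 0.0690). It was also lost without the filter (adjusted p = 0.0687) and without the replicate block (adjusted p = 0.390). With a gradient left out the NP difference ranged from 0.51 to 1.02. The mean over both fractions was 0.38 without replicate 1 of eif3h or of WT, and 0.85 without replicate 2 of either. Its call was lost without the replicate block (adjusted p = 0.282). The translation state of AT1G66070 was 0.73 and 0.83 in eif3h and 1.01 and 1.17 in WT, lower in eif3h without overlap. The change was -0.31 (95% interval -1.01 to 0.39, adjusted p = 0.667).

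AT4G20980 encodes subunit d, known from human cells as a cap-binding subunit on selected mRNAs. In PL its signals were 958.7 and 819.4 in eif3h against 718.8 and 787.1 in WT, and in NP 463.2 and 488.9 in eif3h against 400 and 336.1 in WT. Both fractions were higher in eif3h without overlap, by 0.24 in PL (adjusted p = 0.487) and 0.38 in NP (adjusted p = 0.234), and neither was called. The translation state was 1.05 and 0.75 in eif3h and 0.85 and 1.23 in WT. These overlapped, and the change of -0.14 (95% interval -0.80 to 0.52, adjusted p = 0.861) had opposite signs in the replicates (0.20 and -0.48).

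**Figure D3:**
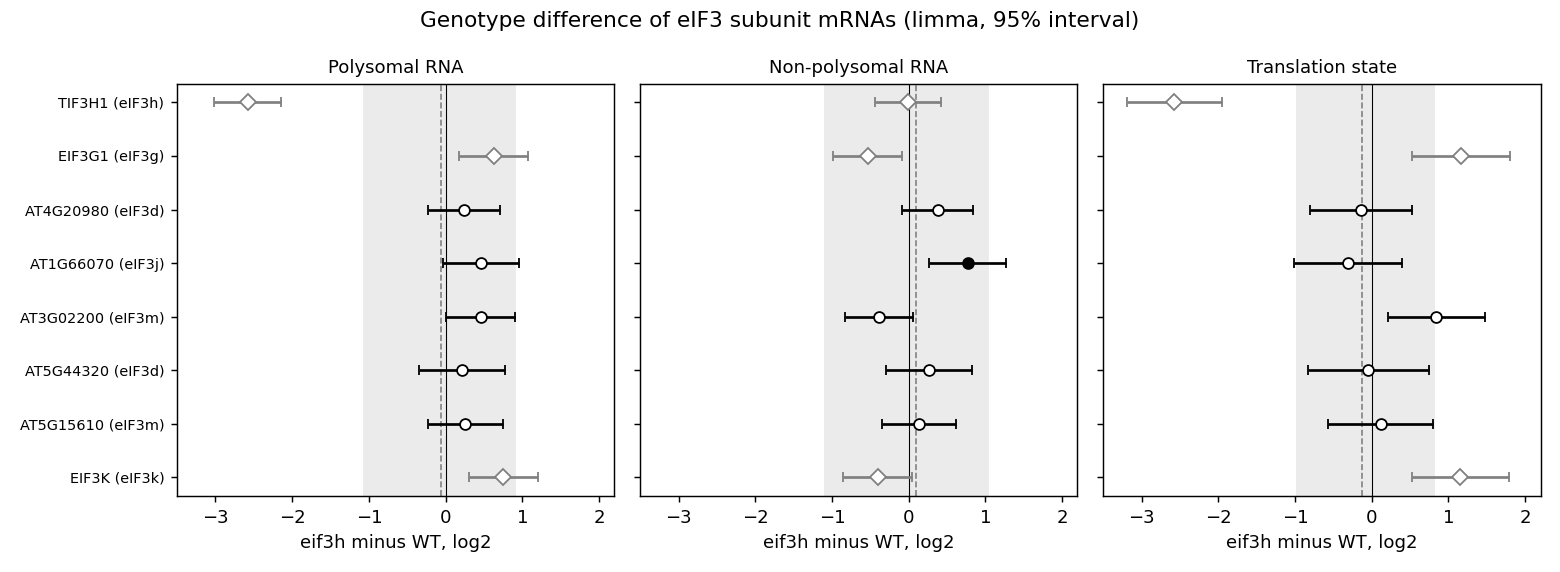
Differences eif3h minus WT (log2) of the 5 genes and the 3 further eIF3 genes, in PL, in NP and in the translation state (panels left to right), with 95% intervals from limma. Circles are filled where the adjusted p was under 0.05, grey diamonds are TIF3H1, EIF3G1 and EIF3K, named through lists of changed mRNAs and given as a description, the grey band spans the 5th to 95th percentile of the 11373 tested probe sets and the dashed line is their median. TIF3H1 lies outside the band at -2.58 in PL and at -2.57 in the translation state and inside it at -0.01 in NP.

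Set side by side, the eIF3 genes held translation states on both sides of 0 in both genotypes. The subunit d and j mRNAs were more polysomal, with fitted means of 0.90 and 0.78 in eif3h (adjusted p = 0.00915 and 0.0215) and 1.04 and 1.09 in WT (adjusted p = 0.00651 and 0.00682), while h and m were more non-polysomal. So of the 3 tested genes (d, j and m) 2 were called higher in PL than NP and 1 lower in each genotype, where 16.9% and 22.2% of probe sets were called higher and lower in eif3h and 15% and 15.1% in WT. The m call held under all alternatives, but the j call was lost without eif3h replicate 2 in eif3h (adjusted p = 0.0536), without WT replicate 2 in WT (adjusted p = 0.0576) and without the replicate block in both (adjusted p = 0.286 in eif3h and 0.179 in WT). The d call in WT was lost without WT replicate 2 (adjusted p = 0.102).

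Between genotypes, 0 of these 3 genes were called by limma in PL, where 5.92% of the 11373 tested probe sets were called higher and 7.61% lower. In PL 1 of 3 (m) had an unadjusted p under 0.05, against 29.6% of all probe sets. In the change of translation state 0 of 3 were called, where 0.0176% were called higher and 0.0352% lower, and 1 of 3 (m) had an unadjusted p under 0.05, against 14.5% of all probe sets. By signal alone, 2 of the 3 (d and m) were higher in PL in both eif3h gradients than in both of WT, against 24.4% of all probe sets, and 0 lower, against 29%. In NP 1 (d) was higher without overlap, against 29.2%, and 0 lower, against 21.8%. In translation state 1 (m) was higher without overlap, against 19.8%, and 1 (j) lower, against 32.2%. The median change over all tested probe sets was -0.12, and the d, j and m changes of -0.14, -0.31 and 0.84 had intervals that spanned it or, for m, lay above it.

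**Figure D4:**
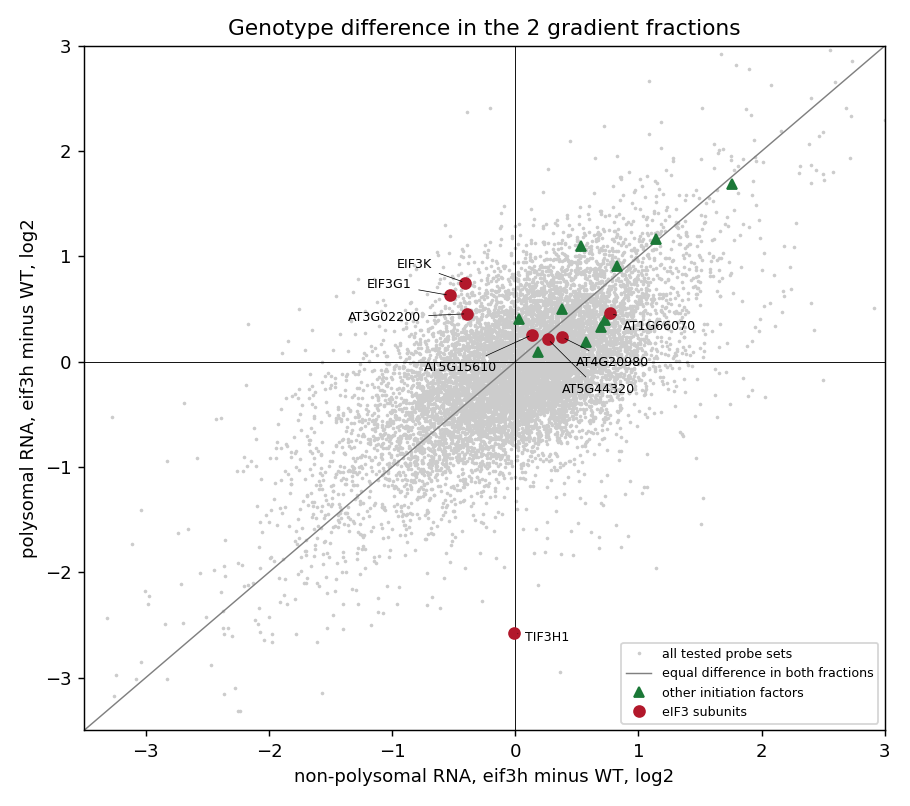
Genotype difference in NP (x axis) against that in PL (y axis), both log2 eif3h minus WT, with 8 eIF3 genes as red circles and 10 other initiation factors as green triangles over all tested probe sets in grey, of which 51 fall outside the axes; the line marks equal differences. TIF3H1 stands at -0.01 on x and -2.58 on y, near the lower edge of the cloud, and the other 7 eIF3 genes lie between 0.22 and 0.75 on y.

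Of 11 further eIF3 genes outside the list, 3 could be read. AT5G44320, a second gene for subunit d, had PL signals of 2028.6 and 1683.6 in eif3h against 1613.1 and 1567.8 in WT, and NP signals of 1521.4 and 1133 in eif3h against 1563.3 and 766.4 in WT. Its change of translation state was -0.05 (95% interval -0.84 to 0.75, adjusted p = 0.967), near that of AT4G20980, while its translation state was lower in mean than that of AT4G20980 in eif3h (0.49) and in WT (0.54). AT5G15610, the other subunit m gene, had PL signals of 484.6 and 664.8 in eif3h against 407.9 and 553.2 in WT, and NP signals of 866.9 and 837.9 in eif3h against 751.3 and 798.3 in WT. Like AT3G02200 it was more non-polysomal, at -0.59 in eif3h and -0.71 in WT, but its change was 0.12 (95% interval -0.57 to 0.81, adjusted p = 0.887). The difference between the paired genes was not tested. EIF3K (AT4G33250, subunit k), named like EIF3G1 through the list of higher loading and so given as a description, had PL signals of 3942.9 and 4434 in eif3h against 2744.9 and 2248 in WT and NP signals of 4743 and 4492.6 in eif3h against 5680.5 and 6574.5 in WT. Its translation state was -0.27 and -0.02 in eif3h and -1.05 and -1.55 in WT, with no overlap and a change of 1.16.

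The 5 annotated probe sets whose log2 signals over the 8 arrays were most like those of TIF3H1, among 5972 compared, were AT1G67480 (Pearson r = 0.991), AT4G17540 (0.978), AT4G19140 (0.974), AT5G03440 (0.974) and AT5G60570 (0.970). All 8 points share 4 gradients, and r ignores the size of a difference. AT1G67480 had PL signals of 531.4 and 506 in eif3h against 1284.5 and 1312.9 in WT, with NP signals of 1891.5 and 2083.2 in eif3h against 2199.3 and 1777.5 in WT. Since these genes were picked for likeness to TIF3H1 on these arrays, a shared pattern follows from the choice. In size the change of AT1G67480, at -1.33, and those of the other 4, at -0.45 to -0.80, were smaller than that of TIF3H1.

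Other initiation factors that meet eIF3 on the small subunit were read from a list of 28 genes, of which the annotation named 12 and 10 passed the filter. Averaged over both fractions, 10 of 10 were higher in eif3h (52.3% of all tested probe sets were), with a median of 0.54 against 0.03 over all of them. Of the 10, 7 passed the test, where 13.6% of probe sets did. The 2 fractions of a gradient deviated together (r = 0.52 in eif3h and 0.68 in WT), but the fit counts them as separate arrays. The p-values over both fractions can therefore be too small for 2 gradients per genotype. Over the same fractions the green shoot markers were lower in eif3h for 3 of 3 (median -0.64). Of these, LHCB4.1 and LHCB4.2 were called lower, where 14.5% of all tested probe sets were. The count of called factors was 6 with quantile normalization, median centring or no filter, and 3 without the replicate block. The median of the 10 factors was 0.61 without WT replicate 1 and 0.43 without WT replicate 2. The largest was AT4G27130 (eIF1, which guards start codon selection), with PL signals of 6509.7 and 4471.9 in eif3h against 1499.2 and 1869.6 in WT and NP signals of 18397.1 and 7602 in eif3h against 3041.9 and 4005.6 in WT. Its difference was 1.72 (adjusted p = 0.00182), with every eif3h array above every WT array of its fraction.

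A second eIF1 gene, AT1G54290, differed by 1.15 (adjusted p = 0.00125). AT2G04520 (eIF1A, the partner of eIF1 in scanning) differed by 0.87 (adjusted p = 0.0167) and AT2G40290 (the alpha subunit of eIF2, which carries the initiator tRNA) by 0.82 (adjusted p = 0.00438). AT1G77840 (eIF5, the GTPase activator of eIF2) differed by 0.56 (adjusted p = 0.0164), AT1G76810 (eIF5B, which joins the subunits) by 0.51 (adjusted p = 0.0497) and EIF4A-2 (an RNA helicase of the cap complex) by 0.44 (adjusted p = 0.0335). Over both fractions AT1G66070 alone was called among the tested partner subunits d, j and m. The 7 factors were listed because they were called higher, so their shared direction follows from that choice. In PL alone 3 were called higher (AT4G27130, AT1G54290 and AT2G40290), where 5.92% of probe sets were, and in NP alone 3 (AT4G27130, AT1G54290 and AT1G77840), where 8.45% were. Without the replicate block these counts were 0 in PL and 1 in NP, where 111 and 174 of all tested probe sets were called higher. With median centring the NP count was 2, where 668 of all tested probe sets were called higher. With a gradient left out the median difference of the factors was 0.39 to 0.61 in PL and 0.47 to 0.68 in NP.

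In translation state the same 10 factors did not move one way. The change was positive for 5, against 40.8% of all probe sets, and negative for 5, with a median of -0.03 and 0 called by limma, while at an unadjusted p under 0.05 14.5% of all tested probe sets passed. The split was 2 and 8 with quantile normalization and 7 and 3 with median centring. The largest positive changes were those of AT2G40290 at 0.57 and AT5G35680 (eIF1A) at 0.38, and the largest negative ones those of AT1G36730 (eIF5) at -0.39 and AT1G76810 at -0.37. All 4 were smaller in size than the change of AT3G02200.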

How the data were processed

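The deposited intensity values were MAS 5.0 signals, 1 per probe set and array, which the authors had computed and scaled per array. Signals were log2 transformed with no offset, the upper 50% of probe sets by mean were kept, and limma 3.58.1 in R 4.3.3 was fitted to all 8 arrays with group means and the replicate number as a block (lmFit, eBayes with trend, 3 residual degrees of freedom), two-sided, Benjamini-Hochberg over 11373 probe sets, threshold 0.05. Same-numbered samples shared a scan day and deviated together in all 6 pairs of groups, so the number pairs them. The correlation was higher between the 2 fractions of a gradient (r = 0.52 in eif3h and 0.68 in WT) than across genotypes (0.33 to 0.40). The fit held no gradient term, so p-values for the mean over both fractions can be too small. Those for the translation state and its change, which compare fractions within a gradient, can be too large. With the gradient as a block 186 probe sets passed for the change, against 6 in the main fit. With 2 arrays per group, the number of arrays limits precision.

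Of 22746 probe sets, 13513 had 1 gene in the platform annotation, 503 several and 8730 were not listed. TIF3H1, EIF3G1 and EIF3K were named through the study's lists of changed mRNAs and are described without a test. All readable members were named, then per list the 2 largest rises and falls in translation state and any member called, and the 5 genes most like TIF3H1. Members and lists were chosen with earlier results of these data known. The fit was tested on simulated data with a common spread and known changes of translation state. With independent arrays it recovered 11% of changes of 1 log2 unit and 86% of changes of 2. Where the arrays of a gradient shared deviations, it recovered 3% and 80%. A change that was not called is therefore no sign of an unchanged translation state. Alternatives were quantile normalization, median centring, no filter, the upper 25%, an offset of 50, no replicate block, the gradient as a block and each gradient left out. Probe sequences were not used, so cross-hybridization between the paired subunit d or m genes was not tested.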

Additional observations from a re-analysis of the deposited data

Results flagged for a closer look

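The change of translation state of TIF3H1, -2.57 on the log2 scale between eif3h and WT (-2.39 and -2.75 in the 2 replicates), drew attention as a difference between the genotypes' PL/NP ratios. Its probe set was named through lists of changed mRNAs, so its place here follows in part from that choice and is not independent evidence of a change.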

How the results depend on the processing

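The number of probe sets past the test depended on the setting. Fits with a gradient left out had 1 residual degree of freedom against 3, so their counts are not directly comparable with the others. For the change of translation state 6 passed, against 1 with quantile normalization, 0 without the filter, 0 without the replicate block, 186 with the gradient as a block and 1 to 885 with a gradient left out. Without the replicate block, 301 probe sets passed against 1538 for the PL difference, 494 against 1945 for NP, 1544 against 3197 over both fractions, 2663 against 4454 for the translation state in eif3h and 1733 against 3423 in WT. Quantile normalization gave 1004 for PL, and the upper 25% by signal 2767 for the translation state in eif3h. With a gradient left out the ranges were 699 to 2873 (PL), 1061 to 3338 (NP), 1612 to 3948 (both), 4354 to 4880 (translation state in eif3h) and 1573 to 5351 (in WT). Median centring moved the split of higher and lower calls to 856 and 681 in PL (673 and 865 as deposited), 668 and 1207 in NP (961 and 984) and 2469 and 1801 for the translation state in eif3h (1925 and 2529), the last being 2087 and 1749 with quantile normalization. It moved the median change from -0.12 to 0.05, and quantile normalization to 0.00.

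Among the eIF3 genes, values near 0 changed sign. The change of AT4G20980 was 0.0325 with quantile normalization, 0.0364 with median centring and -0.3304 to 0.0516 with a gradient left out. The NP difference of TIF3H1 was 0.16 with quantile normalization and -0.1459 to 0.129 with a gradient left out. Over both fractions, leaving out a gradient gave -0.0556 to 0.1547 for EIF3G1 and -0.0391 to 0.1065 for AT3G02200. The causes were not tested. With 2 gradients per genotype, the 95% intervals for the change of the d, j and m genes each spanned over 1 log2 unit.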

Other observations

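The COP9 signalosome and the proteasome lid share PCI and MPN folds with eIF3. Of 21 such genes 6 were named and 5 passed the filter, all of them proteasome lid subunits. The change of translation state was positive for 4 of 5, against 40.8% of all tested probe sets (median 0.68, against -0.12 over all of them), and 0 were called by limma, with 14.5% of all probe sets at an unadjusted p under 0.05. Without eif3h replicate 2 the median was 0.41, and without eif3h replicate 1 or WT replicate 2 all 5 were positive. The largest positive changes were those of AT5G23540 (RPN11, the deubiquitinase of the lid) at 0.81 (adjusted p = 0.321) and AT5G45620 (RPN9) at 0.75 (adjusted p = 0.277), and AT1G75990 (RPN3) was the negative one at -0.44 (adjusted p = 0.712). The AT5G23540 signals were 1887.8 and 2140.8 in eif3h PL against 1249.6 and 1205.4 in WT PL, without overlap, and 1072.7 and 676.7 in eif3h NP against 874.9 and 948.2 in WT NP, with overlap.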
